A study of Caenorhabditis elegans with 12 samples.

Results

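The genes described here are 8 genes for proteins of the cytosolic ribosome of Caenorhabditis elegans, *rps-15A* and *rps-28* of the small subunit and *rpl-7*, *rpl-10a*, *rpl-15*, *rpl-18A*, *rpl-27* and *rpl-35* of the large subunit. They were chosen by the presence of ChIP-seq peaks of the transcription factor KLF-1 near them, so the presence, position, width and height of those peaks are the values that chose them and are given as a description, without a test. They belong to 78 cytosolic ribosomal protein genes identified by their symbols, among 19983 protein-coding genes of the RefSeq table for assembly WBcel235.

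Each ribosome is built from ribosomal RNA and from many proteins that are needed in near equal amounts, and the genes for these proteins are among the most highly transcribed in growing cells. The small subunit reads the mRNA, and the large subunit joins amino acids and holds the tunnel through which the new protein leaves. KLF-1 belongs to the Krüppel-like factors, zinc finger proteins that bind GC-rich and CACCC-type DNA. In worms it is known for roles in fat storage in the intestine and in longevity.

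KLF-1 fused to YFP was immunoprecipitated with GFP-Trap from whole animals on day 1 of adulthood (D1), fed HT115 bacteria carrying the L4440 plasmid. The mutants, here *isp-1;ctb-1*, carried the alleles isp-1(qm150) and ctb-1(qm189), which change the Rieske iron-sulphur protein and cytochrome b of respiratory complex III, and the comparison animals, here WT, were N2. The transgene Is[pvha-6::klf-1-yfp] was present in both. It overexpressed the factor and came from a single integrated and outcrossed line that was crossed into the mutants. The *vha-6* promoter is active in the intestine, so the tagged factor was expressed in a single tissue while the DNA came from the whole body. Co-injected *prab-3::mCherry* and *rol-6(su1006)* came with the array. Each strain gave 3 ChIP libraries and 3 input libraries, and every ChIP library had its own deposited list of peaks called over its input. ChIP from animals without the transgene was not analysed here.

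The lists held 620, 386 and 565 peaks in *isp-1;ctb-1* replicates 1, 2 and 3, and 577, 665 and 303 peaks in WT replicates 1, 2 and 3. Their median fold enrichment over input was 1.53 to 1.94 in *isp-1;ctb-1* and 1.67 to 1.86 in WT. *isp-1;ctb-1* replicate 1 stood apart, with a peak near 879 protein-coding genes, against 176 to 562 in the other 5 lists, and results that rest on it are given with and without it. The Reporting Summary of the study gives each mutant ChIP library a greater depth of uniquely aligned reads than any of the WT ones, so strain and sequencing depth cannot be told apart in the counts of peaks. Nothing in the labels says that replicates came from separate cultures, so their spread may be technical.

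In the 6 lists 607 peaks lay on chromosome III, and 0 of them carried an assigned gene or a p-value, whereas 1652 of the 2509 peaks elsewhere did (65.8%). *rps-15A*, *rpl-35* and the further ribosomal protein gene *rpl-3* lie on that chromosome. Their peaks were found by position alone and have no p-value.

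A gene counted as held by a strain if a peak came within 2000 bp of its span in 2 or 3 of the strain's libraries. *isp-1;ctb-1* held all 8 genes, by the rule that chose them, and WT held 2 of the 8, *rps-15A* and *rpl-27*. Over all protein-coding genes, *isp-1;ctb-1* held 2.46% and WT held 1.39%. The other 6 genes had a peak in at least 2 *isp-1;ctb-1* libraries and in 0 of 3 WT libraries, a pattern found at 1.31% of protein-coding genes, and 0.881% were held by both strains. Because the genes were picked for these peaks, nothing is read from the difference between their counts and these shares.

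**Figure D1:**
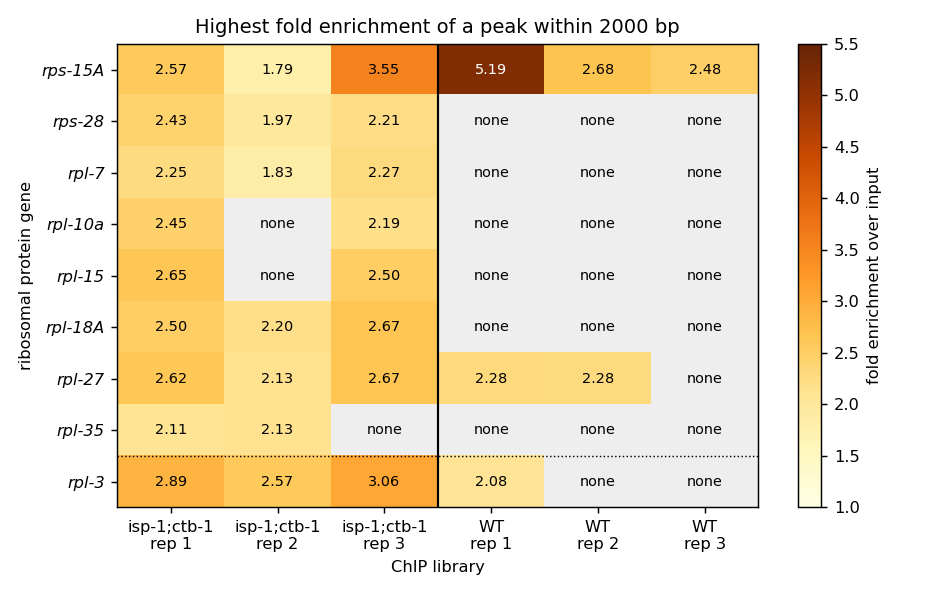
Highest fold enrichment over input of a deposited peak within 2000 bp of each gene (rows) in each of the 6 ChIP libraries (columns, *isp-1;ctb-1* left of WT), with "none" where the list had no such peak. The 8 genes are above the dotted line and *rpl-3*, which is not one of them, is below it. *rps-15A* had a peak in all 6 lists, and 6 of the 8 genes had none in the 3 WT lists.

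*rps-15A*, whose protein binds the small-subunit rRNA in the body of that subunit, carried the highest single fold enrichment of the set, in WT replicate 1. Fold enrichment was 2.57, 1.79 and 3.55 in *isp-1;ctb-1* replicates 1, 2 and 3, against 5.19, 2.68 and 2.48 in WT replicates 1, 2 and 3. The ranges of the strains overlapped, and WT replicate 1 was the highest of the 6 libraries. In *isp-1;ctb-1* the gene led the 8 only in replicate 3, since *rpl-15* and *rpl-27* had higher folds in replicate 1 and *rps-15A* had the lowest fold of the 6 genes with a peak in replicate 2. Fold enrichment is relative to each library's own input, and libraries were not scaled to each other, so ranks within a list are given as well. The peak ranked 29 of 620, 115 of 386 and 2 of 565 in *isp-1;ctb-1*, against 1 of 577, 2 of 665 and 1 of 303 in WT. It was therefore the highest or second highest peak of all 3 WT lists and of 1 *isp-1;ctb-1* list.

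The *rps-15A* peak was also unlike the others in how it covered the gene, though not in its width alone. The gene spans 765 bp (chromosome III, 1950660 to 1951424), and the peaks together spanned 1238 bp (1950287 to 1951524). They were 1155, 331 and 1079 bp wide in *isp-1;ctb-1*, against 1145, 1007 and 894 bp in WT. The peaks near *rpl-27* that lay wholly inside *egl-30* were 941, 506 and 993 bp wide in *isp-1;ctb-1* replicates 1, 2 and 3. In WT the peak near *rpl-27* was 499 bp wide in replicate 1, close to the 506 bp of *isp-1;ctb-1* replicate 2. WT replicate 2 had separate peaks of 356 bp (1836237 to 1836592) and 398 bp (1836722 to 1837119), so no strain difference in width is read here. The *rps-15A* peaks covered 100, 7.19 and 100% of the gene span in *isp-1;ctb-1*, against 100, 99.2 and 100% in WT. The exception was *isp-1;ctb-1* replicate 2, where a short peak reached only the lower-coordinate end. This was the one gene of the 8 whose whole span lay under peaks in both strains. The neighbours *polh-1*, which encodes the translesion DNA polymerase eta, *F53A3.7* and *mboa-6*, of the membrane-bound O-acyltransferase family, began or ended 18, 2 and 489 bp outside the merged peaks and overlapped none of them.

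*rps-28*, a small protein of the small subunit that in yeast lies close to the path of the mRNA, had peaks in each *isp-1;ctb-1* list but not in any WT list. Its fold enrichment was 2.43, 1.97 and 2.21 in *isp-1;ctb-1* replicates 1, 2 and 3. The gene (chromosome IV, 1659691 to 1659997, plus strand) was not overlapped. The peaks ended 220, 320 and 312 bp before its start and were 371, 277 and 206 bp wide. The deposited p-values, whose test the sources used here do not state, were 0.0343, 0.143 and 0.1. *Y41D4B.4* follows *rps-28* on the same strand, 639 bp from the peaks, and the authors assigned the same peaks to it.

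The plot of peak positions shows how the 6 genes without WT peaks differed from *rps-15A* and *rpl-27*. Their 15 peaks were 203 to 446 bp wide (median 277 bp), 0 of 15 overlapped the gene, and they lay 74 to 320 bp from it (median 204 bp). For the 5 of these genes whose strand the lists give, the peaks lay on the side of the start. The lists give a strand only with an assigned gene, and no peak was assigned to a gene past its end. A gene whose peaks all lay on the side of its end would therefore have got no strand from them, and nothing is read from the side. Of 2777 pairs of a peak and an assigned gene in the 6 lists, the peak overlapped the gene in 658, lay on the side of its start in 2119 and on the side of its end in 0. Fold enrichment of the 15 peaks was 1.83 to 2.67 (median 2.25). Over whole lists the median peak width was 317, 372 and 358 bp in *isp-1;ctb-1* replicates 1, 2 and 3, so the widths of the 15 peaks were not unusual.

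**Figure D2:**
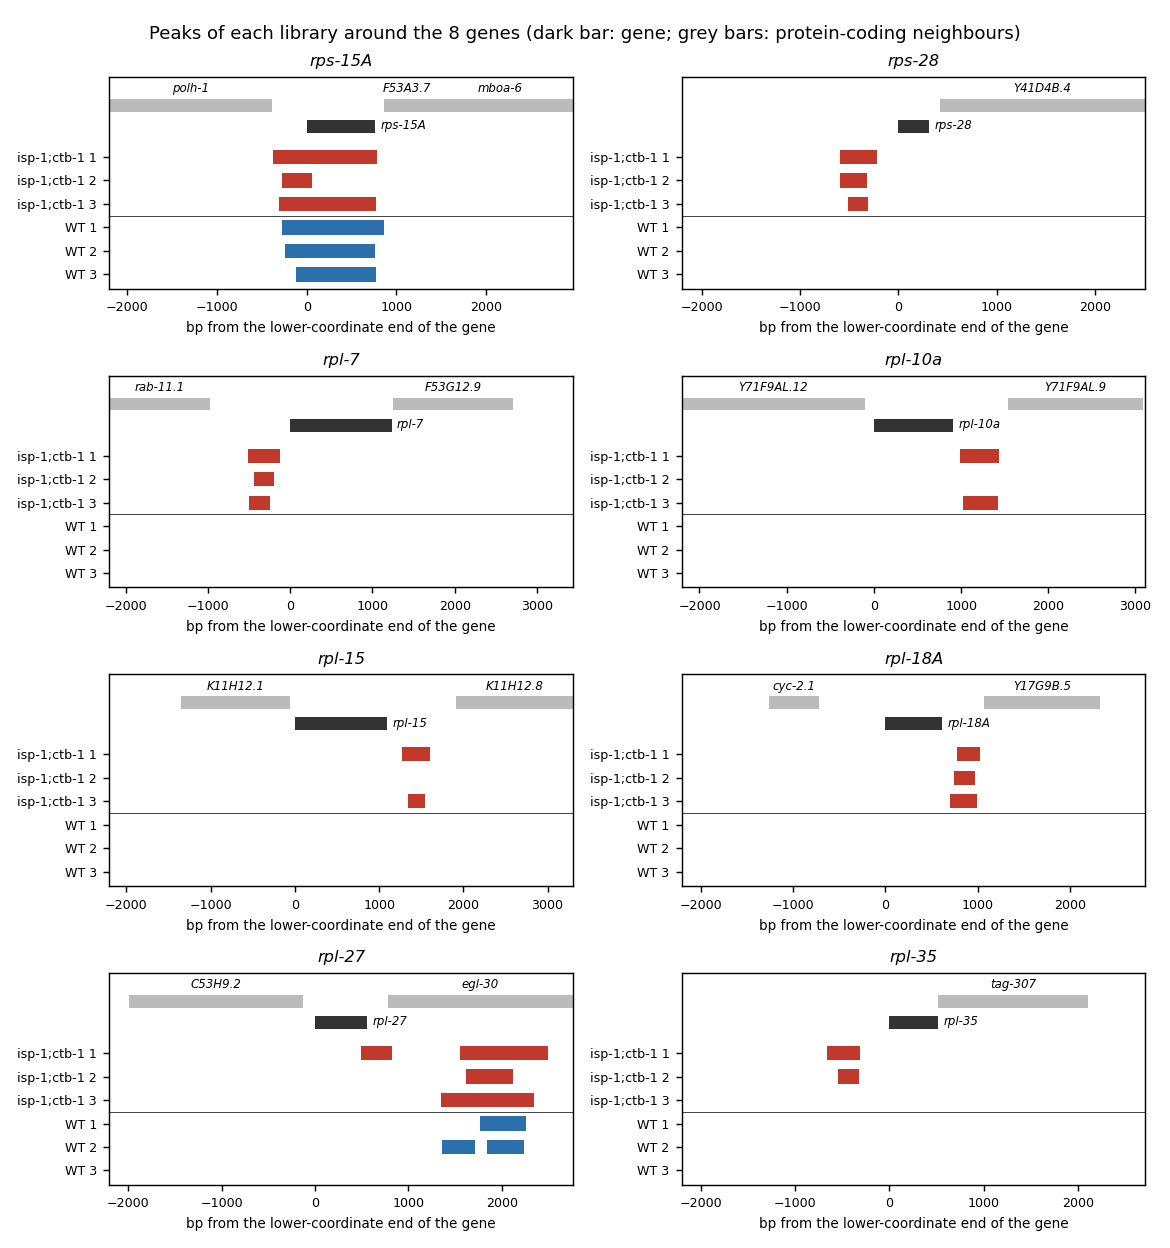
Extent of each deposited peak within 2000 bp of the 8 genes, in bp from the lower-coordinate end of the gene. Rows are libraries, *isp-1;ctb-1* (red) above WT (blue); the dark bar is the gene and grey bars are protein-coding neighbours. Peaks covered *rps-15A* in both strains, lay up to 1284 bp away inside *egl-30* for *rpl-27*, and stood 74 to 320 bp outside the other 6 genes, in *isp-1;ctb-1* lists only.

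Of the large-subunit genes, *rpl-7* and *rpl-18A* had peaks in *isp-1;ctb-1* replicates 1, 2 and 3 but not in WT. *rpl-7* encodes a protein of the large subunit that contacts its rRNA. Its fold enrichment was 2.25, 1.83 and 2.27 in *isp-1;ctb-1* replicates 1, 2 and 3, which placed the peaks at rank 103 of 620, 100 of 386 and 48 of 565. They ended 125, 204 and 243 bp before the gene (chromosome I, 111038 to 112272, plus strand), with p-values of 0.0639, 0.215 and 0.07. Of the 3 *rpl-7* peaks 0 met the threshold that the Reporting Summary states, a fold over 1.5 with p under 0.05.

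All 3 *rpl-7* peaks fell in the 980 bp between *rpl-7* and *rab-11.1*, a small GTPase of recycling endosomes that is transcribed away from it on the minus strand. They overlapped the non-coding RNA genes *F53G12.16* and *F53G12.15* there. The snoRNA gene *F53G12.12* lies within *rpl-7* itself and was not overlapped by a peak. The lists cannot say to which of these genes a peak belongs.

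*rpl-18A*, named *rpl-20* in the deposited lists, had fold enrichments of 2.50, 2.20 and 2.67 in *isp-1;ctb-1* replicates 1, 2 and 3. Its peaks ranked 42 of 620, 18 of 386 and 12 of 565, and the p-values were 0.0259, 0.0658 and 0.0225. They lay 160, 130 and 84 bp from the gene (chromosome IV, 4749167 to 4749778, minus strand) on the side of its start. All 3 were inside the 461 bp that separate it from *Y17G9B.5* on the plus strand. *cyc-2.1*, a cytochrome c gene, lies downstream of *rpl-18A*, 1413 bp from the peaks.

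*rpl-10a* and *rpl-15* each had a peak in *isp-1;ctb-1* replicates 1 and 3, none in replicate 2, and none in WT. *rpl-10a*, named *rpl-1* in the lists, encodes the protein of the mobile L1 stalk, which guides spent tRNA out of the ribosome. Its folds were 2.45 and 2.19 with deposited p-values of 0.0313 and 0.109, and the peaks lay 74 and 107 bp from the gene (chromosome I, 2875398 to 2876308, minus strand). The one at 74 bp was the closest of the 15 peaks of the genes without a WT peak. *rpl-15*, for a protein buried deep in the rRNA of the large subunit, had folds of 2.65 and 2.50 with deposited p-values of 0.0144 and 0.0408, and the peaks lay 176 and 250 bp from the gene (chromosome IV, 653480 to 654576, minus strand). It ranked 22 of 620 and 21 of 565.

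Both genes again shared the peak with a divergent neighbour. The 2 peaks of *rpl-10a* lay in the 623 bp before *Y71F9AL.9* and overlapped the non-coding RNA genes *Y71F9AL.19* and *Y71F9AL.20*, and the 2 peaks of *rpl-15* lay in the 813 bp before *K11H12.8*. Thus 4 of the 5 genes with a peak assigned by the authors, *rpl-7*, *rpl-10a*, *rpl-15* and *rpl-18A*, stand head to head with another protein-coding gene, and *rps-28* does not. Among all peaks with an assigned gene, the share assigned to genes on both strands was 43.5, 33.3 and 33.8% in *isp-1;ctb-1* replicates 1, 2 and 3, against 19.5, 21.5 and 16.7% in WT. For this property of whole lists the ranges of the strains did not overlap, and it was not tested.

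*rpl-35*, whose protein sits at the rim of the exit tunnel, had a peak in *isp-1;ctb-1* replicates 1 and 2, with folds of 2.11 and 2.13, and none in replicate 3 or in WT. The peaks lay 310 and 319 bp on the lower-coordinate side of the gene (chromosome III, 7855134 to 7855646). Its strand is not given in the lists, so whether that is the side of its start is not known from them. *tag-307* begins 2 bp after *rpl-35*, on the far side from the peaks.

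*rpl-27*, for another protein of the large subunit, was near peaks in 3 of 3 *isp-1;ctb-1* and 2 of 3 WT libraries, but these peaks lay in another gene. All 7 overlapped *egl-30* (chromosome I, 1835661 to 1841965), which encodes the Gq alpha subunit that signals from receptors to phospholipase C. The authors assigned none of them to *rpl-27* (1834883 to 1835438). In *isp-1;ctb-1* the peaks inside *egl-30* had folds of 2.62, 2.13 and 2.67 in replicates 1, 2 and 3, at 994, 1061 and 794 bp from *rpl-27*. In WT they had folds of 2.28 in replicate 1, at 1205 bp, and of 2.04 and 2.28 in replicate 2, at 799 and 1284 bp, and replicate 3 had none.

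The one peak that touched *rpl-27* itself was in *isp-1;ctb-1* replicate 1, with a fold of 2.01, and it covered 11.9% of the gene and the beginning of *egl-30*. It ranked 244 of 620 and had a p-value of 0.142. The WT replicate 2 peak with a fold of 2.04 was within 1.81% of the fold of the mitochondrial DNA peak in the same list (2.01), the only 1 of the 28 peaks that came within 5% of it. With the distance set to 1000 bp, WT no longer held *rpl-27*.

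All 28 peaks near the 8 genes, 22 in *isp-1;ctb-1* lists and 6 in WT lists, were above the median fold of their list. A p-value was deposited for 20 of them. The stated threshold was met by 8, all in *isp-1;ctb-1* lists, and by 0 of the 6 WT peaks, of which the 3 at *rps-15A* had no p-value. Over whole lists the threshold was met by 10.2, 1.81 and 10.6% of the peaks of *isp-1;ctb-1* replicates 1, 2 and 3, against 14.4, 12.8 and 17.8% of those of WT. With that threshold *isp-1;ctb-1* held 3 of the 8 genes, *rpl-15*, *rpl-18A* and *rpl-27*, and WT held 0. All 3 met it in replicates 1 and 3 and not in replicate 2, so this count rests on replicate 1. Of all protein-coding genes, with all 3 libraries of each strain, *isp-1;ctb-1* held 0.135% and WT held 0.36% at that threshold. Over all genes the order of the strains was therefore the opposite one. The 8 genes were chosen for their *isp-1;ctb-1* peaks, and nothing is read from this difference.

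The wider family was described by the same counts, which include the 8 genes. *isp-1;ctb-1* held 9 of the 78 ribosomal protein genes (11.5%) and WT held 2 (2.56%), beside the 2.46% and 1.39% of all protein-coding genes. Of the 70 genes other than the 8, *isp-1;ctb-1* held 1 (1.43%) and WT held 0. The one gene was *rpl-3*, whose protein reaches towards the peptidyl transferase centre. Its folds were 2.89, 2.57 and 3.06 in *isp-1;ctb-1* replicates 1, 2 and 3, against 2.08 in WT replicate 1 and no peak in WT replicates 2 and 3. At ranks 10 of 620, 5 of 386 and 4 of 565 it stood higher in the *isp-1;ctb-1* lists than any of the 6 genes without a WT peak. Its peaks lay 107, 127 and 90 bp on the lower-coordinate side of the gene in *isp-1;ctb-1*, against 149 bp in WT. The fold of the WT peak was within 1.08% of that of the mitochondrial DNA peak in the same list (2.06). Without *isp-1;ctb-1* replicate 1, the mutants held 6 of 78 (7.69%), *rps-15A*, *rps-28*, *rpl-3*, *rpl-7*, *rpl-18A* and *rpl-27*, and 309 of all protein-coding genes (1.55%).

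In single libraries, 21, 7 and 9 ribosomal protein genes had a peak within 2000 bp in *isp-1;ctb-1* replicates 1, 2 and 3, against 3, 2 and 1 in WT replicates 1, 2 and 3. The 8 chosen genes made up 8, 6 and 7 of these in *isp-1;ctb-1*, against 2, 2 and 1 in WT. In percent of the 78 genes these were 26.9, 8.97 and 11.5% in *isp-1;ctb-1*, beside 4.4, 1.75 and 2.81% of all protein-coding genes. In WT they were 3.85, 2.56 and 1.28%, beside 1.84, 1.89 and 0.881% of all protein-coding genes.

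In every library but *isp-1;ctb-1* replicate 1, most of these genes were among the 8. Among the other 70 ribosomal protein genes, 13, 1 and 2 had a peak in *isp-1;ctb-1* replicates 1, 2 and 3, against 1, 0 and 0 in WT. These were 18.6, 1.43 and 2.86% in *isp-1;ctb-1* and 1.43, 0 and 0% in WT. They were above the share of all protein-coding genes in *isp-1;ctb-1* replicate 1, about level with it in replicate 3, and below it in the other 4 libraries.

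With all 78 genes the mean was 12.3 ± 7.57 genes in *isp-1;ctb-1* and 2 ± 1 genes in WT (SD, n = 3 each), a difference of 10.3 genes, and without *isp-1;ctb-1* replicate 1 it was 6 genes. With the 70 genes the mean was 5.33 ± 6.66 genes in *isp-1;ctb-1* and 0.333 ± 0.577 genes in WT (SD, n = 3 each), a difference of 5 genes. The two-sided exact permutation test of the 70 genes gave p = 0.2, and 3 libraries against 3 cannot go below 0.1. Without *isp-1;ctb-1* replicate 1 the difference for the 70 genes was 1.17 genes. Neither count is independent of the choice of the 8 genes, which took out of the family nearly all the genes with a peak in several *isp-1;ctb-1* libraries.

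**Figure D3:**
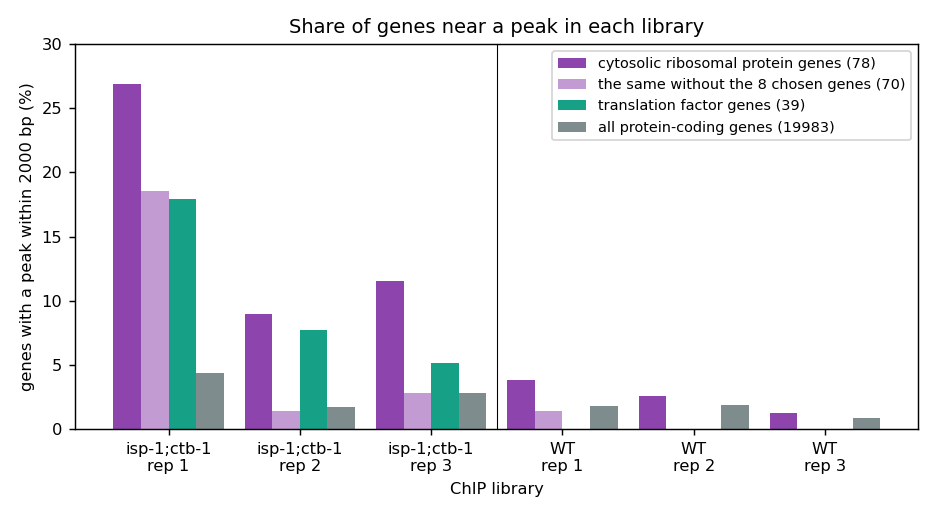
Percent of cytosolic ribosomal protein genes, the same without the 8 chosen genes, translation factor genes and all protein-coding genes with a peak within 2000 bp, in each ChIP library (*isp-1;ctb-1* left of WT). All 78 ribosomal protein genes reached 26.9, 8.97 and 11.5% in *isp-1;ctb-1* and 3.85, 2.56 and 1.28% in WT, the 70 without the chosen ones 18.6, 1.43 and 2.86% in *isp-1;ctb-1* and 1.43, 0 and 0% in WT, and translation factor genes had no peak in WT.

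Of the 78 genes, 22 had a peak in at least 1 library and 56 had none. The share of all protein-coding genes under this rule is not given here, so nothing is read from the counts of this paragraph. A WT peak was seen at 3, *rps-15A*, *rpl-27* and *rpl-3*, and each of these also had *isp-1;ctb-1* peaks. A further 13 had a peak in a single *isp-1;ctb-1* library, 12 of them in replicate 1 and *rps-29* in replicate 3, with folds of 1.79 to 2.47. Those of replicate 1 were *rpl-7A*, *rpl-8*, *rpl-11.2*, *rpl-12*, *rpl-23*, *rpl-41.1*, *rpl-41.2*, *rps-3A*, *rps-12*, *rps-18*, *rps-19* and *rps-24*, of which *rpl-41.1* and *rpl-41.2* shared 1 peak. Genes of both subunits were represented, with 7, 2 and 3 small-subunit and 14, 5 and 6 large-subunit genes in *isp-1;ctb-1* replicates 1, 2 and 3, against 1, 1 and 1 small-subunit and 2, 1 and 0 large-subunit genes in WT.

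Translation factor genes, which act with the ribosome in starting and extending proteins, were counted in the same way. *isp-1;ctb-1* held 2 of 39 (5.13%), *eif-3.C*, a subunit of the initiation factor eIF3, and *iff-2*, a homologue of the human hypusinated factor eIF5A. Both had peaks in 3 of 3 *isp-1;ctb-1* libraries, so both stayed held without replicate 1, where 1.55% of all protein-coding genes were held. WT held 0 of 39. Of all protein-coding genes, *isp-1;ctb-1* held 2.46% and WT held 1.39%. In single libraries 7, 3 and 2 translation factor genes had a peak in *isp-1;ctb-1* replicates 1, 2 and 3, against 0, 0 and 0 in WT. These were 17.9, 7.69 and 5.13% in *isp-1;ctb-1*, beside 4.4, 1.75 and 2.81% of all protein-coding genes. In WT the shares of all protein-coding genes were 1.84, 1.89 and 0.881%, and at such shares 0 of 39 says little. The 2 of 39 held by *isp-1;ctb-1* are also too few for anything to be read from them.

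The deposited comparison of the strains gives the authors' mean score per condition for 287 regions, without a value per library, and 6 of these regions lie at the 8 genes. Its columns do not name the strains. Where *isp-1;ctb-1* peaks alone made up a region, condition 2 was higher in 63 of 63, and where WT peaks alone did, condition 1 was higher in 35 of 40. In the title of the table *isp-1;ctb-1* comes before WT, so the conditions are given here by number. Over all 287 regions, condition 2 was the higher in 49.1%, with a median ratio of condition 2 over condition 1 of 0.996.

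Of the 6 regions, 5 were higher in condition 2. The region before *rps-28* had an authors' mean of 190 in condition 2 and 120 in condition 1, a ratio of 1.58. The regions of *rpl-18A* (187 in condition 2 and 124 in condition 1), *rpl-15* (189 and 126) and *rpl-10a* (225 and 175) had ratios of 1.51, 1.49 and 1.28. These 4 regions were built from *isp-1;ctb-1* peaks alone, and the 63 such regions had ratios of 1.24 to 2.22 with a median of 1.45, so all 4 lay within the range of their class, *rpl-10a* near its low end. The *rpl-27* region, inside *egl-30*, had 630 in condition 2 and 541 in condition 1 (ratio 1.16). *rps-15A* alone was lower in condition 2, with 775 in condition 2 and 940 in condition 1 (ratio 0.825).

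**Figure D4:**
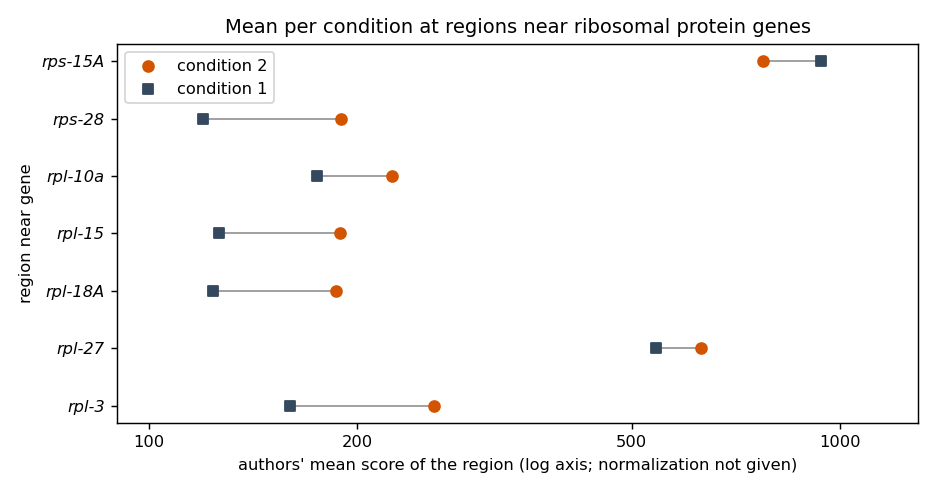
The authors' mean score in condition 2 (circles) and condition 1 (squares) for the regions near 6 of the 8 genes and near *rpl-3*, on a log axis. The means have no error because the table gives no value per library. *rps-15A* and *rpl-27* lie highest and are also the longest regions shown, and all regions shown but that of *rps-15A* are higher in condition 2.

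In level, the regions of *rps-15A* and *rpl-27*, which both strains held, were well above the other 4, which ranged from 187 to 225 in condition 2. These regions of *rps-15A* (1950287 to 1951524) and *rpl-27* (1836232 to 1837372) were also the longest, while the other 4 spanned at most 446 bp. How the score depends on length is not stated, so a higher level here cannot be told apart from a longer region. All 6 regions were below the median of the whole table, 1281 in condition 2 and 1303 in condition 1. *rpl-7* and *rpl-35* had no region in the table, although *rpl-7* had a peak in 3 of 3 *isp-1;ctb-1* libraries. Of the other ribosomal protein genes, *rpl-3* had 258 in condition 2 and 160 in condition 1 (ratio 1.61), *rpl-12* had 215 and 153 (ratio 1.40) and *rps-19* had 178 and 135 (ratio 1.32).

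At the edge of the 2000 bp rule, the farthest peak inside it was that of *rpl-27* in WT replicate 2, at 1284 bp. Just outside were *rpl-32*, with peaks 3198 to 3362 bp away, and *rpl-29*, with peaks 4552 to 4684 bp away, each in all 3 of the *isp-1;ctb-1* lists.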

How the data were processed

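KLF-1-YFP ChIP-seq of D1 animals comprised 12 sequenced libraries, 6 ChIP and 6 input. Per the labels and the study's methods, the authors ran QuickNGS with BWA, whose version the sources do not state, on the genome and genes of Ensembl release 93 (assembly WBcel235), used FastQC 0.10.1 for quality, and let MACS2 2.0.10 find the peaks of every ChIP library over the matching input. The deposited lists give each peak a ratio to input, its fold enrichment, and a deposited p-value for peaks with an assigned gene. The deposited comparison table holds the authors' mean per condition, treated as a score because the sources do not state its normalization. Its fold change and p-value columns are the authors' own results and were not used, and 15 of its lists of peak names are cut at 100 characters. The depth behind single peaks is unknown, so no counting interval is given.

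Distances ran from each peak to the gene span of the RefSeq table (46926 genes), whose version of the genes may differ from that of the lists. Genes within 2000 bp in at least 2 libraries were called held by a strain. The search was tested on simulated data and recovered 1000 of 1000 planted pairs. The members and lists were chosen with earlier results of these data known. Ribosomal protein genes were taken by the symbols rpl, rps and rla, with *ubl-1*, *ubq-2* and *rack-1*. Translation factors had symbols beginning with eef, eif, iff, ife or ifg. Text names the 8 genes, other ribosomal protein genes held by a strain and neighbours within 2000 bp of the peaks, and genes seen in 1 library, translation factors and genes just outside 2000 bp were named after their values were seen. For counts per library the strains were set against each other by an exact permutation test, two-sided, with and without the 8 genes. Alternatives changed the distance, the libraries needed, the threshold, the scaling and the replicates. Promoter and protein sequences were not analysed here, so the planned search for the KLF element was not run. Python 3.11.15, pandas 2.3.3, numpy 2.4.6, scipy 1.17.1 and matplotlib 3.10.9 were used.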

Additional observations from a re-analysis of the deposited data

How the results depend on the processing

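The difference in ribosomal protein genes per library, 10.3 genes more in *isp-1;ctb-1* (two-sided exact permutation p = 0.1, the smallest possible), rests in part on the 8 genes chosen for their *isp-1;ctb-1* peaks, so neither its sign under other settings nor its p is a sign of stability. With these 8 left out, an alternative added after seeing the data, it was 5 genes (exact permutation p = 0.2), and *isp-1;ctb-1* held 1 and WT 0 of the remaining 70. By the same exact test on all 78 genes, it was 1.33 genes for peaks overlapping the gene (p = 1), 3.33 with the stated fold and p threshold (p = 0.4), 7 at a fold over 2, 12.3 within 5000 bp, and 6 to 13 with each library left out in turn (p = 0.2, the smallest possible), lowest without *isp-1;ctb-1* replicate 1. It was 1.83 percentage points as a share of peaks and 1.36 as a share of all genes with a peak. With the replicate number as a block it was 10.3 genes (sign-flip permutation p = 0.25, the smallest possible). Same-numbered libraries did not deviate together (r = -0.0813, 0.114 and -0.132 over 1218 regions, across regions and not replicates). That gives no sign of pairing, but with so few libraries it cannot exclude that same-numbered libraries were prepared together. Of the 8 genes, *isp-1;ctb-1* held 5 when 3 of 3 libraries were needed, 1 by overlap, 3 with the stated threshold and 5 to 8 with a library left out, lowest without its replicate 1. WT held 1 when 3 of 3 libraries were needed, 1 by overlap, 1 within 1000 bp, 0 with the stated threshold and 1 to 2 with a library left out, with 1 without WT replicate 1 or 2. Of the 78 genes, *isp-1;ctb-1* held 22 when 1 library was enough (share of all genes not given here), 1 by overlap, 3 with the stated threshold and 6 to 9 with a library left out. WT again held 1 when 3 of 3 libraries were needed, 1 by overlap, 1 within 1000 bp, 0 with the stated threshold and 1 to 2 with a library left out. Shares of all protein-coding genes are given here only for the main rule, the stated threshold and without *isp-1;ctb-1* replicate 1. Nothing is therefore read from the held counts at the other settings. The stated threshold removes every chromosome III peak by construction, since none has a p-value, and 19 of the 78 genes lie there. Adding 7 genes under newer symbols, chosen after seeing the data, left the counts at 9 for *isp-1;ctb-1* and 2 for WT of 85.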

Other observations

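Many folds in the lists were exact multiples of a small step. Within 0.02 of a step, 64.4, 30.6 and 35% of the peaks of *isp-1;ctb-1* replicates 1, 2 and 3 were whole multiples of 0.0245, 0.0229 and 0.0284, against 14, 16.1 and 9.9% in WT, where 4% would be counted for any step. Of the peaks near the 8 genes, 9 of 9, 6 of 6 and 6 of 7 were whole multiples in the *isp-1;ctb-1* lists, against 1 of 2, 2 of 3 and 0 of 1 in the WT lists. Equal folds occurred at different genes, such as 2.67 for both *rpl-18A* and *rpl-27* in *isp-1;ctb-1* replicate 3, and 2.13 for both *rpl-27* and *rpl-35* in replicate 2. The origin of the steps was not tested.

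The peaks nearest to *rpl-32*, 3198 to 3362 bp away, had folds of 2.43, 1.83 and 2.27 in *isp-1;ctb-1* replicates 1, 2 and 3. Those nearest to *rpl-29*, 4552 to 4684 bp away, had 2.36, 2.04 and 2.53.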
